A study of Oryza sativa with 6 samples.

Results

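The regions described here are IP-G4s listed as K+-specific or Na+-specific that lie in the duplicated short-arm ends of rice Chr11 and Chr12. IP-G4s are stretches of DNA pulled down by BG4, an antibody that recognises G-quadruplexes (G4s). The members are all entries of the authors' K+-specific list and Na+-specific list with a midpoint below 2.5 Mb on Chr11 or Chr12. There were 303 of them among 25509 specific IP-G4s on the 12 chromosomes, namely 155 on Chr11 and 148 on Chr12. Wild-type (WT) rice seedlings (Oryza sativa, japonica) were cross-linked before genomic DNA was prepared from them. The DNA was fragmented, denatured and refolded in the crowding agent PEG200 with either KCl (K+PEG) or NaCl (Na+PEG). It was then immunoprecipitated with BG4 and sequenced beside input DNA without antibody (BG4-DNA-IP-seq). Each of the 3 groups had 2 replicates, and KCl was present in the antibody and washing buffers of both IP groups, so that the cations differed at the refolding step. Folding took place in vitro on naked DNA, and the seedlings were one genotype without treatment.

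G4s form where runs of guanines stack into planar tetrads around a monovalent cation, and K+ usually stabilises them better than Na+. The tips of the short arms of rice Chr11 and Chr12 are copies of one segment. The copies share many genes in the same order and have stayed unusually similar to each other, for which a recent duplication and later gene conversion have both been described. Comparing them thus asks whether related DNA gave the same number, kind and size of specific IP-G4s, and how these are ordered along each copy.

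An IP-G4 was K+-specific in the authors' lists when it was found in both K+PEG replicates without overlap with the reproducible IP-G4s of Na+PEG, and Na+-specific in the converse case. IP-G4s reproducible in both cations, which the paper calls common, are not in these lists and were not used here. The lists hold positions only, without a signal or a value of a single library. The library lists used here cover the beginning of Chr1, where they hold 864 to 874 peaks each, so that replicates could not be compared on Chr11 and Chr12. In the first 2.5 Mb of Chr1, the definition gave back 95 of 95 K+-specific and 55 of 55 Na+-specific entries at identical positions. In that stretch, 70.5% (95% Wilson interval 60.7 to 78.8) of the K+-specific IP-G4s also overlapped a peak of at least 1 Na+PEG library, and 78.2% (65.6 to 87.1) of the Na+-specific ones overlapped a peak of at least 1 K+PEG library. Specific therefore means not reproducible in the other cation, rather than absent from it. The same overlap could not be measured for the members on Chr11 and Chr12.

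As single examples, the oligos that the study synthesised for 1 K+-specific and 1 Na+-specific locus are printed 5′ to 3′ with runs of at least 3 G in capitals. Their positions are not given in the sources used here, and they are not presented as members of the Chr11 and Chr12 ends.
K+-specific locus: GGGcggctGGGaggccGGGGtGGGGGG
Na+-specific locus: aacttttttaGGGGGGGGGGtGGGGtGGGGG
The K+-specific oligo of 27 nt has 4 such runs, the longest of which has 6 G. The Na+-specific oligo of 31 nt has 3 runs, and its longest, of 10 G, is long enough to supply more than 1 G-tract of a G4. G made up 74.1% and 61.3% of the bases, respectively. In the paper, circular dichroism spectroscopy of the Na+-specific sequence gave a similar amplitude with Na+ and with K+. The methods describe this assay in water with NaCl or KCl and name no PEG200, so that its buffer differed from that of the dot blots. Its BG4 signal on dot blots was stronger after folding with NaCl than with KCl, both in PEG200.

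Below 2.5 Mb, both copies held nearly the same number of specific IP-G4s, but a different mixture of the types. The Chr11 end held 87 K+-specific and 68 Na+-specific IP-G4s, and the Chr12 end held 103 and 45. The total on Chr11 was 1.05 times that on Chr12 (exact 95% interval 0.831 to 1.32). This near equality depends on the boundary. The ratio of totals was 1.23 (0.947 to 1.59) with the boundary at 2 Mb, where Chr11 had 135 and Chr12 had 110. At 3 Mb it was 1.08 (0.880 to 1.33). For Na+-specific IP-G4s the ratio of Chr11 to Chr12 was 1.51 (1.02 to 2.25), and for K+-specific ones it was 0.845 (0.628 to 1.13). With the boundary at 3 Mb, the ratio for Na+-specific IP-G4s was 1.34 (0.944 to 1.91), an interval that includes 1. The intervals cover counting error only, since 1 list of each type exists and IP-G4s of one genome are not replicates.

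The K+ share, which is the percentage of specific IP-G4s that were K+-specific, was 56.1% (95% Wilson interval 48.3 to 63.7) in the Chr11 end and 69.6% (61.8 to 76.4) in the Chr12 end. Across both whole lists it was 65.6%, so that the 2 copies lay on either side of the genome-wide share. The share on Chr11 was lower by 13.5 percentage points, with a 95% interval for Chr11 minus Chr12 from -23.9 to -2.57 points (Newcombe). The difference was carried by Na+-specific IP-G4s, of which Chr11 had 23 more, and by K+-specific ones, of which Chr12 had 16 more. No test across replicates was possible. With the boundary at 3 Mb, the difference was -7.74 points and its interval, from -17.3 to 2.03, included 0.

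**Figure D1:**
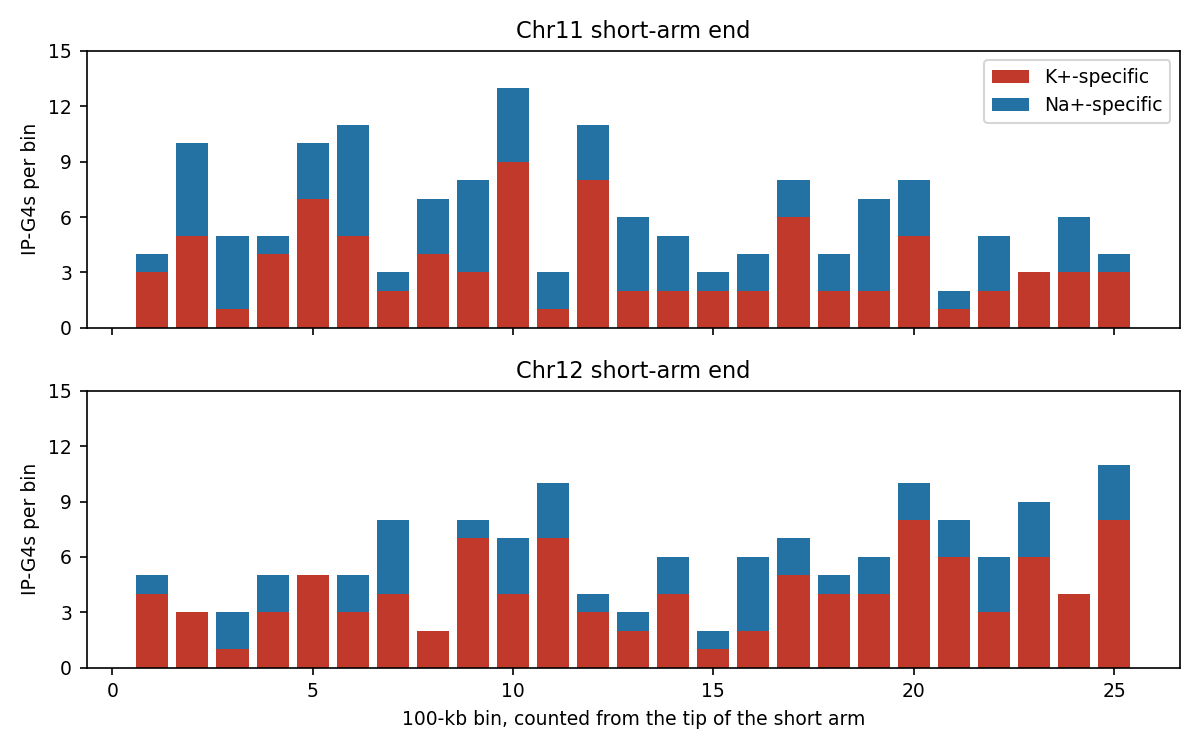
Specific IP-G4s in 25 successive bins of 100 kb from the tip of the short arm of Chr11 (top) and Chr12 (bottom). The height is the number per bin, split into K+-specific (red) and Na+-specific (blue); bins of Chr11 reach 13 and those of Chr12 reach 11, in different places.

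The higher K+ share of Chr12 was seen along the whole end. In 5 of 5 steps of 500 kb the share was higher on Chr12 than on Chr11. From the tip inwards, it was 58.8%, 54.8%, 53.6%, 54.8% and 60% on Chr11. On Chr12 it was 76.2%, 66.7%, 68.0%, 67.6% and 71.1%. Within each step the Wilson intervals of the 2 copies overlapped, because a step held only 20 to 42 IP-G4s. The order was the other way round in the next 500 kb, between 2.5 and 3 Mb, where the share was 72.5% (57.2 to 83.9) of 40 IP-G4s on Chr11 and 56.2% (39.3 to 71.8) of 32 on Chr12. These intervals overlapped as well.

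**Figure D2:**
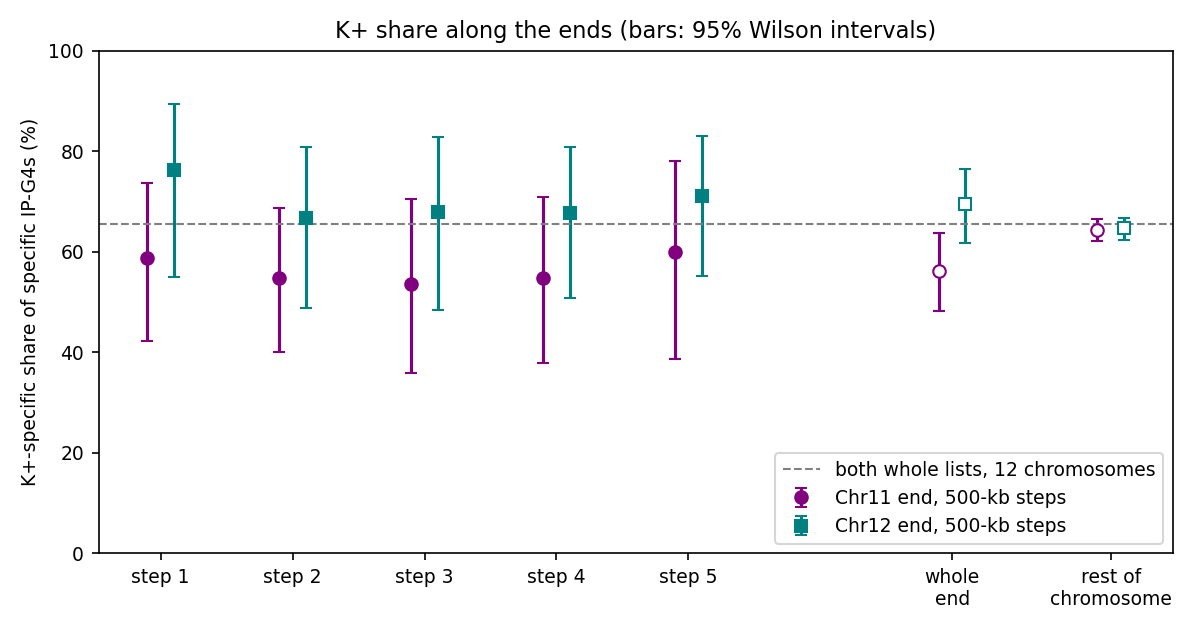
K+-specific share of specific IP-G4s in percent, in the 5 steps of 500 kb from the tip inwards (filled), in each whole end and in the rest of each chromosome (open). Bars are 95% Wilson intervals and the dashed line is the 65.6% of both whole lists; Chr12 (squares) is above Chr11 (circles) in every step, while the rests differ by less than their intervals.

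Against the rest of their own chromosomes, the copies deviated in opposite directions. The rest of Chr11 had a K+ share of 64.3% (62.1 to 66.5) among 1806 IP-G4s, and the Chr11 end was lower by 8.21 points, with an interval of the difference from -16.4 to -0.318. The rest of Chr12 had 64.6% (62.4 to 66.8) among 1827 IP-G4s, and the Chr12 end was higher by 4.95 points, with an interval from -3.17 to 12.1 that includes 0. Taken as one set, the 2 ends had 62.7% (57.1 to 68.0) and the rest of both chromosomes 64.5% (62.9 to 66.0). This difference of -1.79 points (interval -7.57 to 3.70) was smaller than counting error, since the deviations of the copies nearly cancelled. The long-arm ends of equal length had shares of 56.0% (93 of 166) on Chr11 and 60.4% (99 of 164) on Chr12.

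Among all 144 whole windows of 2.5 Mb on the 12 chromosomes, the K+ share ranged from 55.4% to 75.5% with a median of 65.6%. The Chr11 end was lower than 142 of them, with 1 window below it, and it was the lowest of the 12 short-arm tips. The Chr12 end was higher than 117 windows and lower than 26. In numbers, the 68 Na+-specific IP-G4s of the Chr11 end were exceeded in 30 windows and the 45 of the Chr12 end in 124. The 87 K+-specific IP-G4s of the Chr11 end were exceeded in 127 windows. These ranks describe one genome and were not tested. Low shares also occurred elsewhere on Chr11, with 57.7% and 59.5% in its windows 6 and 7. The long-arm end of Chr11, which is not one of these windows because they are counted from the short-arm tip, had 56.0% (93 of 166). The low share was thus not particular to the duplicated end.

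**Figure D3:**
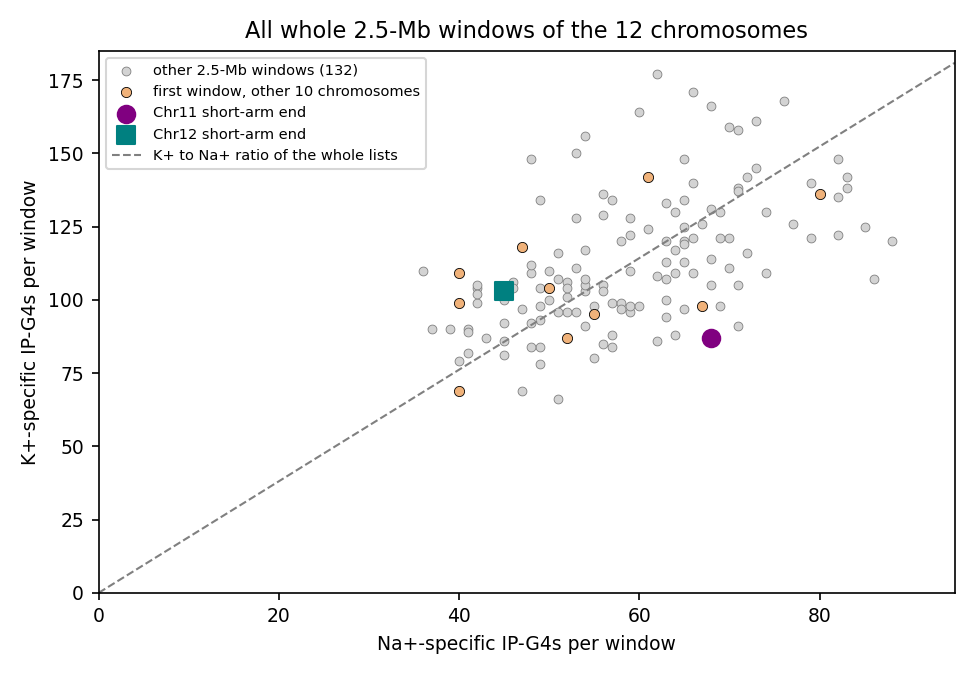
K+-specific against Na+-specific IP-G4s in every whole window of 2.5 Mb on the 12 chromosomes, with the first windows of the chromosomes in orange. The Chr11 end (purple circle, 87 and 68) lies below the dashed line that marks the ratio of the whole lists, and the Chr12 end (green square, 103 and 45) lies above it.

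Specific IP-G4s were sparser in the 2 ends combined than in the rest of the 2 chromosomes. There were 62.0 per Mb (exact Poisson 95% interval 52.6 to 72.6) in the Chr11 end and 59.2 per Mb (50 to 69.5) in the Chr12 end, against 68.1 and 73.0 per Mb in the rests of Chr11 and Chr12. The ends together had 0.860 times the density of the rests (0.762 to 0.967), Chr11 alone 0.910 times (0.768 to 1.07) and Chr12 alone 0.811 times (0.681 to 0.959). On Chr11, K+-specific IP-G4s had 0.794 times the density of the rest (0.631 to 0.988), while Na+-specific ones had 1.12 times (0.859 to 1.44). On Chr12, Na+-specific IP-G4s had 0.697 times the density of the rest (0.503 to 0.944), while K+-specific ones had 0.873 times (0.707 to 1.07). The numbers in the 12 short-arm tips ranged from 109 to 216 per 2.5 Mb, with a median of 152 beside 165 over all 144 windows. Across these windows the SD was 30.7, and 48 held fewer IP-G4s than the Chr11 end and 34 fewer than the Chr12 end. The intervals of densities and ratios cover counting error only, not this spread between windows. The members covered 1.71% of the Chr11 end and 1.54% of the Chr12 end, against 1.93% and 2.09% of the rests.

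The length of an IP-G4 is that of the segment shared by the 2 replicates of a condition. In both copies, the K+-specific members had the greater mean length. On Chr11, the K+-specific mean was 302 bp (SD 164 across IP-G4s, n = 87) and the Na+-specific mean was 241 bp (SD 93.1, n = 68). On Chr12, they were 281 bp (SD 122, n = 103) and 214 bp (SD 70.1, n = 45). The difference between types was 61.1 bp on Chr11 (95% interval from the standard error across IP-G4s, 20.2 to 102) and 66.8 bp on Chr12 (35.5 to 98.1), beside 58.4 bp in the rest of both chromosomes (50.1 to 66.7). The medians were closer, at 253 and 225.5 bp on Chr11 and 252 and 205 bp on Chr12.

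Between the copies, lengths differed less than between the types. K+-specific IP-G4s were 21.0 bp longer on average on Chr11 than on Chr12, with an interval from -20.8 to 62.7 bp, and their medians differed by 1 bp. Na+-specific IP-G4s were 26.7 bp longer on Chr11 (-3.49 to 56.8), and their medians differed by 20.5 bp. Compared with the rest of Chr12, Na+-specific IP-G4s of the Chr12 end differed by -35.7 bp in the mean (interval -57.6 to -13.9) and by -27 bp in the median. K+-specific ones differed from the rest of Chr12 by -25.8 bp (-51.0 to -0.665). The Chr11 end was close to the rest of Chr11, with differences of -2.10 bp (-37.7 to 33.5) for K+-specific and -3.37 bp (-26.8 to 20) for Na+-specific IP-G4s. All these intervals of lengths come from the spread across IP-G4s of one genome, which are not replicates.

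**Figure D4:**
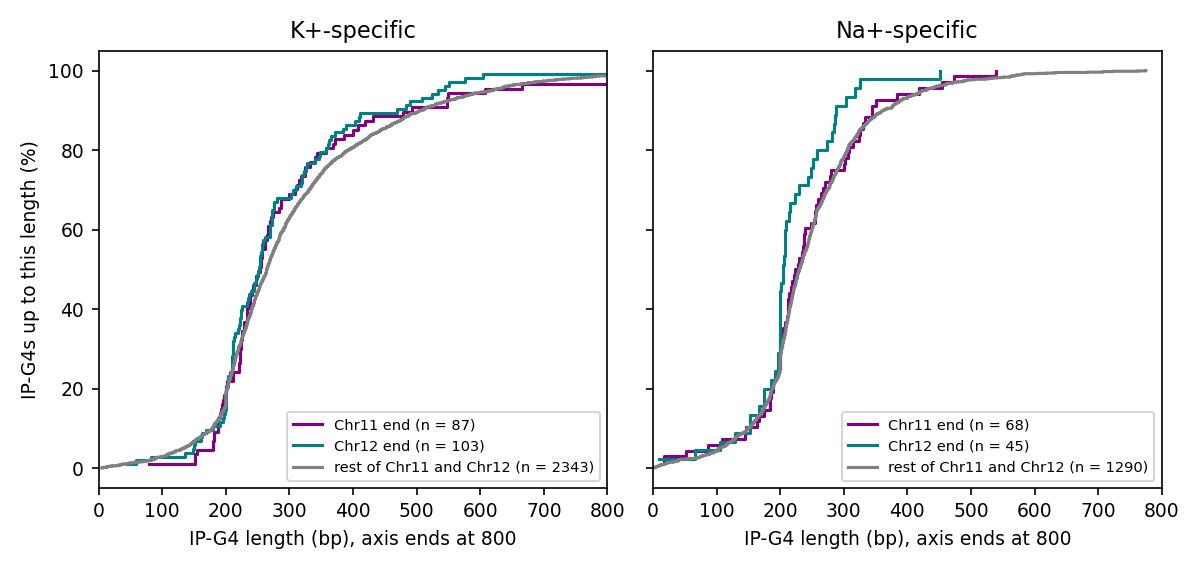
Cumulative distribution of IP-G4 length in bp for K+-specific (left) and Na+-specific (right) IP-G4s of the Chr11 end, the Chr12 end and the rest of both chromosomes. The Na+-specific curve of the Chr12 end (median 205 bp) rises to the left of the other two (225.5 and 230 bp), and K+-specific IP-G4s over 800 bp are beyond the axis.

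The shortest peak called in a library was 200 bp long, so that shorter segments arise only from partial overlap of replicates. Such segments made up 18.4% of the K+-specific and 25% of the Na+-specific IP-G4s on Chr11, and 14.6% and 28.9% on Chr12. The rest of both chromosomes had 15.6% and 24.2%. The Wilson intervals of the ends, for instance 17.7 to 43.4 for Na+-specific IP-G4s on Chr12, included the values of the rest.

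The longest K+-specific IP-G4 of either copy was on Chr11 from 995530 to 996655 (1126 bp, MSU v7.0 coordinates), followed there by one of 882 bp from 1258422 to 1259303. On Chr12 the longest were 844 bp from 1780830 to 1781673 and 604 bp from 904884 to 905487. Among Na+-specific IP-G4s, the longest on Chr11 were 539 bp from 1051794 to 1052332 and 474 bp from 1369349 to 1369822. Those on Chr12 were 451 bp from 1762235 to 1762685 and 326 bp from 2135345 to 2135670. The shortest members were Na+-specific segments of 17 bp on Chr11, from 618133 to 618149, and 10 bp on Chr12, from 2454905 to 2454914. The longest K+-specific IP-G4s of the copies therefore lay at different coordinates, although the 604 bp one on Chr12 starts close to a K+-specific IP-G4 of 264 bp on Chr11 (904661 to 904924).

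The members were spread over the whole of both ends. The first on Chr11 was Na+-specific, from 27258 to 27402, and the first on Chr12 was K+-specific, from 11222 to 11474. The last below the boundary were K+-specific in both copies, from 2481588 to 2481784 on Chr11 and from 2478085 to 2478284 on Chr12. The first beyond it were Na+-specific in both, from 2500700 to 2501002 and from 2510275 to 2510555. No member crossed the boundary, since requiring the whole segment to lie below it left the ratio of counts at 1.05.

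The members were not spread along the 2 copies in the same way. On Chr11, 90 IP-G4s lay in the outer 1.25 Mb and 65 in the inner 1.25 Mb, whereas Chr12 had 66 and 82. The outer part thus held 58.1% (95% Wilson interval 50.2 to 65.5) of the members on Chr11 and 44.6% (36.8 to 52.6) on Chr12. The difference was 13.5 points (Newcombe interval 2.22 to 24.3). These intervals cover counting error only, not the spread between stretches of the genome. The split was not among the planned comparisons, and the copies were not aligned. The direction of the split was the same for both types on each chromosome. K+-specific IP-G4s numbered 52 and 35 on Chr11 and 47 and 56 on Chr12, and Na+-specific ones 38 and 30 on Chr11 and 19 and 26 on Chr12. In the outermost 500 kb, Chr11 had 34 IP-G4s and Chr12 had 21, and in the innermost 500 kb they had 20 and 38. The densest bins of 100 kb were bin 10 on Chr11, with 9 K+-specific and 4 Na+-specific IP-G4s, and bin 25 on Chr12, with 8 and 3. In bin 10, Chr12 had 7 IP-G4s, and in bin 25 Chr11 had 4.

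Across the 25 bins of 100 kb, the numbers in the copies showed no positive relation at equal distance from the tip (Pearson r = -0.21, Spearman rho = -0.26). The bins share the same libraries, and with so few IP-G4s per bin these coefficients are a description only. The copies were not aligned, so bins at equal distance from the tip need not hold corresponding DNA. Whether the order was conserved can therefore not be told from these coefficients. For K+-specific IP-G4s alone r was 0.05, and for Na+-specific ones it was -0.32. Chr11 had more IP-G4s in 12 bins, Chr12 in 11, and 2 bins were equal. With bins of 50 kb r was -0.20, and with bins of 250 kb it was -0.22.

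The order of the types along the members of each copy was mixed, with common IP-G4s left out of account. On Chr11, 79 of 154 neighbouring pairs (51.3%) joined a K+-specific and a Na+-specific IP-G4, 47 joined 2 K+-specific and 28 joined 2 Na+-specific ones. On Chr12, 70 of 147 pairs (47.6%) were mixed, 67 were K+-specific and 10 were Na+-specific. In the rests of Chr11 and Chr12, 41.8% and 42.6% of neighbouring pairs were mixed. The numbers of mixed and equal pairs and the length of series also depend on the K+ share of a stretch, which was not adjusted for. The longest series of K+-specific IP-G4s without a Na+-specific one in between had 6 members on Chr11, from 1559626 to 1670599, and 8 members on Chr12, from 2343304 to 2418871. The longest Na+-specific series had 4 members in both copies, and it occurred 4 times on Chr11 and 1 time on Chr12, from 1534020 to 1548201.

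The median gap between neighbouring specific IP-G4s was 9367 bp on Chr11 and 10862 bp on Chr12. In the rests of these chromosomes it was shorter, at 8252 and 7567.5 bp. Common IP-G4s were left out, so that a gap need not be free of IP-G4s. Gaps under 1 kb made up 14.9% (10.2 to 21.4) on Chr11 and 8.16% (4.73 to 13.7) on Chr12, against 14.1% in both rests. Of the 23 close pairs on Chr11, 8 were K+-specific, 6 Na+-specific and 9 mixed, and of the 12 on Chr12, 7 were K+-specific, 2 Na+-specific and 3 mixed. The closest pair on Chr11 consisted of K+-specific IP-G4s from 2221313 to 2221652 and from 2221826 to 2222059. The second of these also bordered the longest gap of that copy, 128785 bp up to the K+-specific IP-G4 that starts at 2350845. The longest gap on Chr12 was 73447 bp, between Na+-specific IP-G4s ending at 237455 and starting at 310903.

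Within 500 bp of the same coordinate, few specific IP-G4s had a specific partner in the other copy. A common IP-G4 at that place would not be counted as a partner. Of the 155 members on Chr11, 8 (5.16%, 2.64 to 9.85) had a Chr12 member with a midpoint within 500 bp, and 73 (47.1%, 39.4 to 54.9) had one within 5 kb. Of the 148 members on Chr12, 67 (45.3%, 37.5 to 53.3) had a Chr11 member within 5 kb. Over the 30 displacements of Chr11 described below, the median share of Chr11 members with a partner was 5.82% within 500 bp. Within 5 kb it was 46.9%, so that both observed shares of Chr11 were close to these medians. In the 73 cases on Chr11, the nearest Chr12 member was of the same type in 41, with 27 K+-specific and 14 Na+-specific pairs. In the other 32 cases it differed, and 22 of these were Na+-specific on Chr11 with a K+-specific neighbour on Chr12. The 41 cases of the same type are 56.2% of the 73, close to the 52.4% that follow from the K+ shares of the 2 ends alone. The 22 cases are 30.1%, beside 30.5% from those shares. The coordinates of the copies need not correspond, because insertions shift one against the other.

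The closest pair of equal type was Na+-specific, from 586877 to 587080 on Chr11 and from 586766 to 587038 on Chr12, with midpoints 76.5 bp apart. The next was K+-specific, from 2359919 to 2360111 on Chr11 and from 2360068 to 2360278 on Chr12, 158 bp apart. The closest pair of different type was 48.5 bp apart, with a K+-specific IP-G4 from 1962638 to 1962906 on Chr11 and a Na+-specific one from 1962721 to 1962920 on Chr12. In a further pair, 76 bp apart, the types were the other way round, Na+-specific from 971253 to 971452 on Chr11 and K+-specific from 971291 to 971566 on Chr12. Whether the paired segments are copies of the same sequence was not tested.

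A common offset of the copies was then searched by displacing the Chr11 positions by -300 to 300 kb in steps of 20 kb, an analysis chosen after seeing the data. After displacement, 136 to 155 Chr11 members still faced the Chr12 end, and shares were taken of these. Within 5 kb, 47.1% had a Chr12 partner without displacement, and the share ranged from 34.4% to 54.9% over the 30 displacements, 12 of which gave more. Within 500 bp it was 5.16% without displacement and ranged from 2.76% to 10.3%, with 20 displacements above. The highest share within 500 bp was 15 of 145 members, at a displacement of 160 kb. An offset between these steps, or one that changes along the ends, would not be seen in this way.

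**Figure D5:**
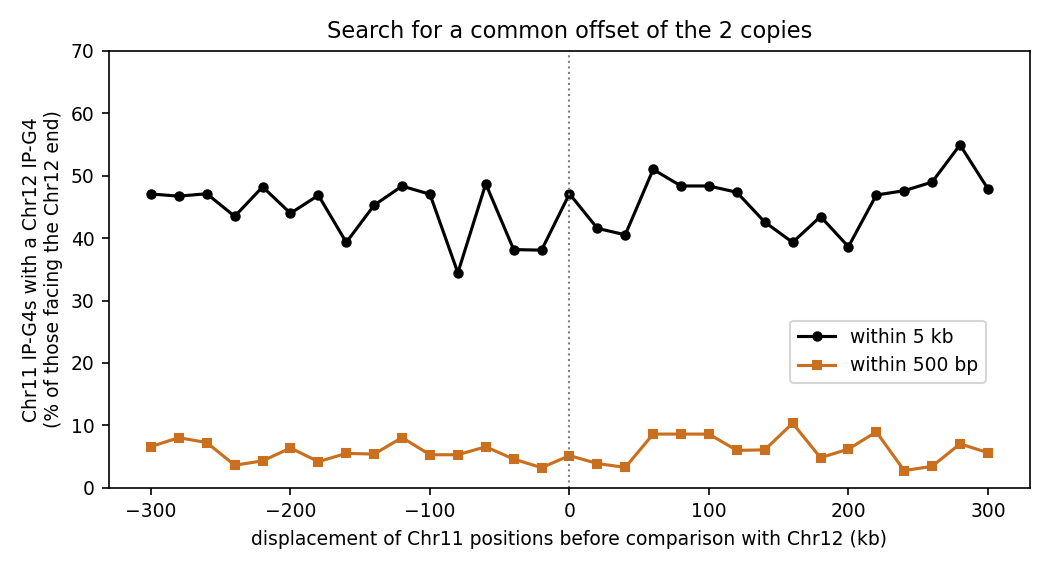
Share of specific Chr11 IP-G4s with a specific Chr12 IP-G4 within 5 kb (black) or 500 bp (orange). It is given in percent of those facing the Chr12 end, against the displacement of Chr11 positions in kb. The values at 0 (47.1% and 5.16%) lie within the range over the other displacements (34.4% to 54.9% and 2.76% to 10.3%).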

How the data were processed

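BG4-DNA-IP-seq libraries of K+PEG, Na+PEG and input were made in 2 replicates each. The authors used Trim Galore for cleaning, BWA for alignment to the MSU v7.0 genome, SAMtools against PCR duplicates and MACS for peaks of each library over the input, and then intersected replicates and conditions with bedtools. The deposited lists of specific IP-G4s hold start and end positions, without signal. The depth of single libraries is not given in these files. The study's supplement lists it and counts reads above a minimum mapping quality as unique, but whether peaks were called from unique reads only is not given in the sources used here. How reads matching both copies equally well entered the peaks was therefore not analysed here. The score, fold enrichment, p-value and q-value columns of the library lists were not used.

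Members were assigned by midpoint in Python 3.11.15 with numpy 2.4.6, scipy 1.17.1 and pandas 2.3.3. Starts are printed counted from 1. Shares have Wilson, differences of shares Newcombe, counts exact Poisson and ratios exact conditional intervals at 95%, all of which cover counting error only. Mean lengths were compared with the standard error across IP-G4s. No p-value was computed, because the lists carry no replicates for these chromosomes. The rest of each chromosome runs from 2.5 Mb to its last listed IP-G4. The set and interval functions were tested on simulated data.

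The regions named are the 2 longest of each type in each copy, the first and last, the first beyond the boundary, the longest gap, the densest bin and the closest pairs. The shortest members, the closest neighbours and the longest series were added after their values were seen. The members, lists and comparisons were chosen with earlier results of these data known. The gene table used here is of another assembly, so that genes, sequence alignment of the copies, GC content and putative G4 sequences were not analysed here, nor were the input libraries.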

Additional observations from a re-analysis of the deposited data

How the results depend on the processing

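Under 53 alternative settings for the 14 results, 48 values stayed within the limit set for them, 4 moved and 1 changed sign. The 30 displacements of Chr11 are a search for an offset and are not counted here. For shares, ratios, densities and mean lengths this limit was the interval of the main value, for the relation between bins an interval for r, and for counts a factor of 1.5. Requiring the whole segment to lie below the boundary could change no value, because no member crossed it. A value within its limit can also have an interval that newly includes no difference, as the K+ share between the copies had at 3 Mb. Leaving out segments shorter than the shortest called peak lowered the density to 48.8 per Mb in the Chr11 end, 48.0 in the Chr12 end and 57.4 in the rest, since fewer IP-G4s enter by construction. A distance of 2 kb in place of 5 kb left 32 of the Chr11 IP-G4s with a Chr12 partner, and 10 kb gave 103. Set against the long-arm ends only, the K+ share of the 2 short-arm ends was higher by 4.52 points (interval -3.10 to 12) rather than lower, and the cause was not tested. The ratio of Na+-specific IP-G4s between the copies was 1.76 with the boundary at 2 Mb. The difference in mean length of Na+-specific IP-G4s between the copies was 34.9 bp (2.57 to 67.3) with the boundary at 2 Mb. Without short segments it was 32.3 bp (3.89 to 60.6). These intervals use the standard error across IP-G4s of one genome, which are not replicates. Without the 2 fullest bins, r between the copies was -0.37.

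No paired analysis was possible because the lists of specific IP-G4s combine the replicates and no result comes from a test. Leaving out a replicate was not run for the same reason. The alternatives that carry coordinates over by sequence alignment were not run, as no genome of the build was used here. The number of members limits the precision, with 45 Na+-specific IP-G4s on Chr12 as the smallest set.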
